A study of Mus musculus with 2 samples.

Results

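The genes described here encode ligands and receptors first known from the guidance of growing axons. They are the semaphorins of classes 3 to 7, plexins, neuropilins, ephrins, Eph receptors, Slits, Robos, netrins and Unc5 receptors, chosen by the gene name that the array file gives each probe. By this rule 68 of the 34820 named genes on the arrays were members, with 97 of 55676 probes. Where a gene had several probes, the brightest over both channels and both arrays stands for it unless another is named. Of the 68 genes, 43 had 1 probe and 25 had several.

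RNA came from mouse epidermis of the FVB/N strain at postnatal day 4.5. Each of 2 arrays held 1 pup of genotype K14-rtTA;TRE-Sox11-FLAG, labelled with Cy5, and 1 littermate of genotype K14-rtTA, labelled with Cy3, and both pups had doxycycline (Dox) for 12 h. The control therefore carried the activator transgene and received the drug but had no Sox11 transgene, and the keratin 14 promoter limits the activator to cells that use it. According to the methods of the study, littermates were matched for sex, and epidermal sheets were lifted from dorsal skin with dispase. The question is which guidance genes differed in level after SOX11 was induced. A log2 ratio is Cy5 over Cy3, so it is positive where the SOX11-induced pup was brighter. The methods describe a colour swap that the labels do not show, and with 1 dye orientation an effect of the dye on a probe and an effect of genotype cannot be told apart.

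Guidance molecules work in pairs across cell surfaces. Semaphorins signal through plexins, and most class 3 semaphorins, which are secreted, need a neuropilin beside the plexin. Ephrins are tethered to the membrane and bind Eph receptor tyrosine kinases on the neighbouring cell, while Slits bind Robos and netrins bind Unc5 receptors and Dcc. In epithelia the same molecules act in cell sorting, adhesion and migration, and several are made by keratinocytes.

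Between 36.3% and 41.5% of probes were well above background in a channel. Both probes of Sox11 itself were below background in both channels on both arrays, so they do not check the labels, and their position within the transgene was not analysed here. All 8 keratinocyte markers were above background, as were 3 of 8 endothelial, 4 of 8 dermal fibroblast, 4 of 7 Schwann cell, 6 of 6 melanocyte and 6 of 7 immune markers. The endothelial markers Cdh5, Cldn5, Emcn, Tek and Tie1, the fibroblast markers Fbn1, Lum and Pdgfra and the Schwann cell marker Cdh19 were below it everywhere. Among the marker lists, the arrays differed most in keratins of the hair shaft and inner root sheath, whose 14 genes had a median log2 ratio of 2.17 on array 1 and -0.42 on array 2. In bulk epidermis, fewer cells of a type and less RNA per cell cannot be told apart. The p-values rest on 2 littermate pairs and on a spread borrowed from all probes.

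Of the 68 guidance genes, 45 (66.2%) gave signal above background on both arrays, in 1 channel or both, against 46.9% of all named genes. Sema3a and Efnb3 were above background on 1 array alone. The remaining 21 were below background everywhere and have no fold change. These were Sema3g, Sema4f, Sema5b and Sema6b among semaphorins, Plxna4 and Plxnb3 among plexins, Nrp1, and the Eph receptors Epha3, Epha6, Epha7, Epha8 and Epha10. Slit1, Slit2, Robo3, Robo4, Ntn1, Ntn3, Ntn5, Unc5c and Unc5d completed them. Every B-type Eph receptor (5 of 5) and every A-type ephrin (5 of 5) was above background. The probes of Ephb3 and Epha5 hold a GT run described further on, and all 75 probes with such a run were above background.

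At an adjusted p under 0.05 in the limma fit over all probes and a change past 1.5-fold, 4 guidance genes were higher and 2 were lower in SOX11-induced epidermis. Sema6c, Efna4, Epha4 and Ephb3 rose, and Sema3c and Sema3d fell. The rises are 5.88% of the 68 genes, beside 3.44% of all named genes, and the falls are 2.94%, beside 1.75%. Among genes above background the rises are 8.89% of 45, beside 6.81% of all such genes, and the falls are 4.44%, beside 3.47%. At the stricter log2 threshold of 1.5 that the methods give, Sema6c alone was called higher and no member lower, against 0.491% and 0.123% of all named genes. That call rests on the brightest Sema6c probe, as the other did not pass this threshold. An unadjusted p under 0.05 in limma was reached by 24 of the 68 members (35.3%) and by 22.6% of all named genes. Counting only genes above background, it was reached by 18 of 45 members (40.0%) and by 31.7% of all such genes.

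Over the 45 genes above background the median log2 ratio was 0.06, and it was 0.03 over all genes above background. Of these members, 17 were positive on both arrays, 15 were negative on both and 13 had opposite signs. Of all 16341 genes above background, these numbers were 6559, 5585 and 4197. In 38 of the 45 members, and in 13918 of the 16341 genes, the mean change was within 1.5-fold. All ratios are relative to the loess curve, and with each array centred on its median instead, 16 of the 45 turned from negative to positive, among them Efna1, Efnb1, Epha1, Epha2, Plxnd1, Sema3f, Sema4a, Sema4b, Sema4d and Sema5a, while Sema3c and Sema3d stayed negative. Across these 45 genes, which are not independent replicates, ratios on array 1 and array 2 were correlated with Pearson and Spearman coefficients of 0.798 and 0.672. For all 16341 genes above background these were 0.687 and 0.663. The arrays gave the same sign in 71.1% of the members and in 74.3% of all genes above background.

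**Figure D1:**
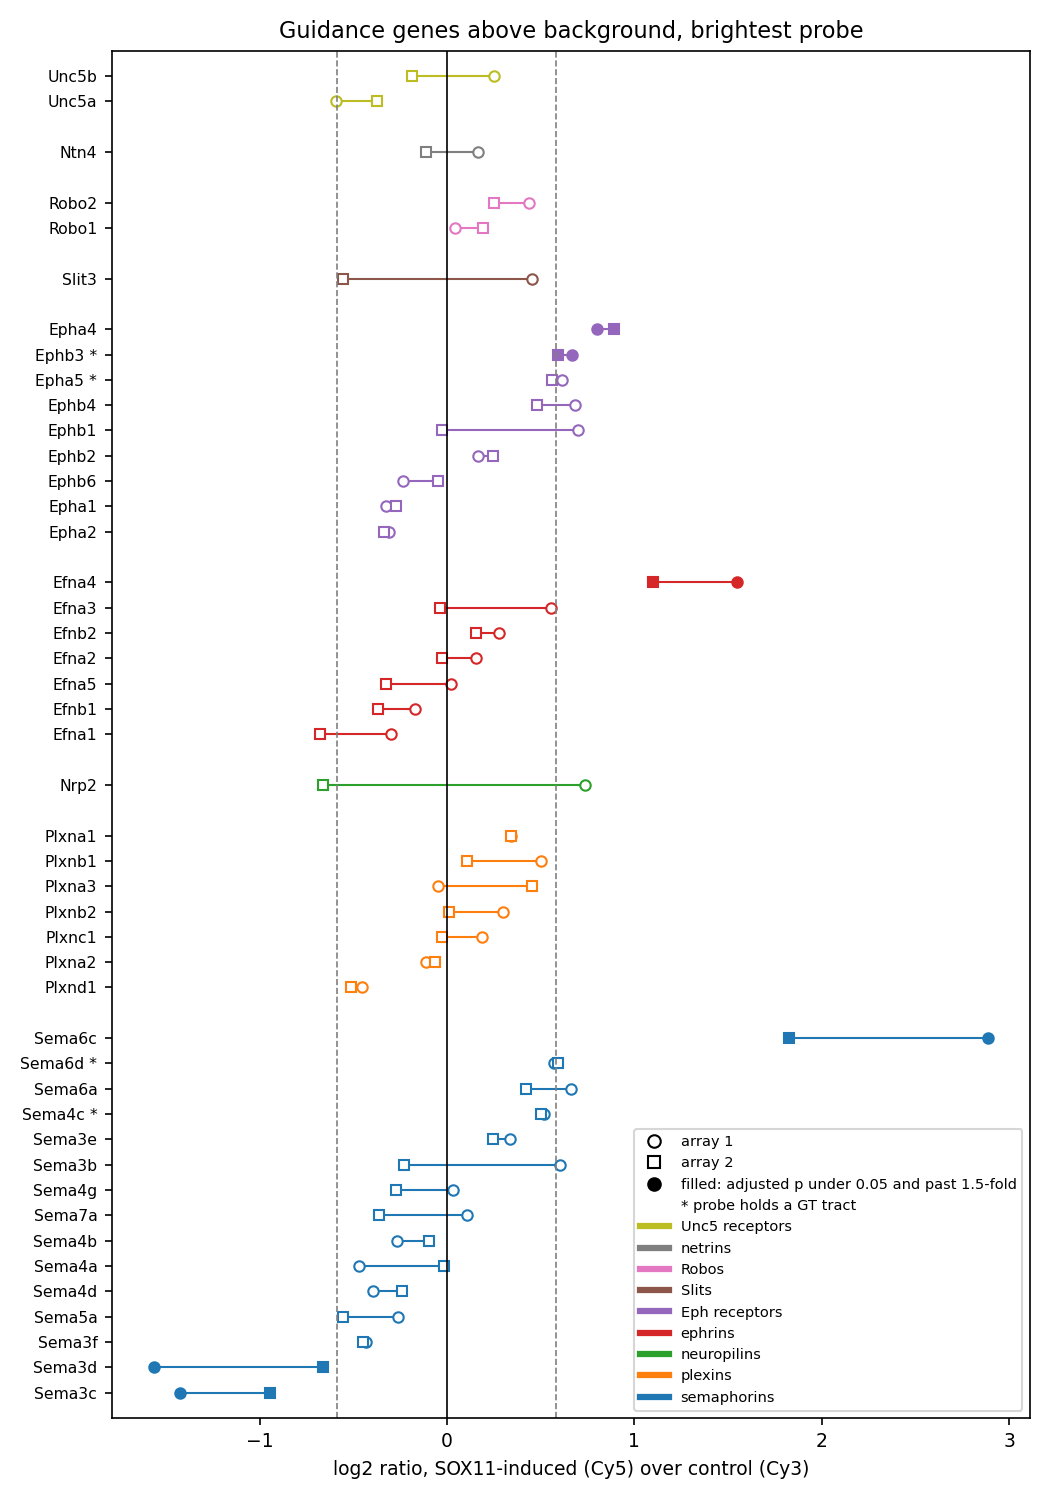
Log2 ratio of SOX11-induced over control epidermis for the 45 guidance genes above background, by family, with circles for array 1, squares for array 2 and a line between them. Dashed lines mark a change of 1.5-fold, filled symbols mark the 6 called genes, and an asterisk marks the 4 genes whose probe holds a GT tract. Sema6c lies farthest to the right at 2.89 and 1.83, and Sema3c and Sema3d lie farthest to the left.

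Among ligands, the semaphorins of classes 3 and 6 had medians of opposite sign after loess. Of the 3 transmembrane class 6 semaphorins above background, all were higher on both arrays, with a median of 0.58, and 1 was called. That median is the value of Sema6d, whose probe holds a GT run described further on. Of the 5 class 3 semaphorins above background, 3 were lower on both arrays, with a median of -0.44, and 2 were called lower. Among all 16341 genes above background, 6559 were higher on both arrays and 5585 lower on both. Of these genes 6.81% were called higher and 3.47% lower. The classes hold few genes, and the difference between them was not tested. With each array centred on its median in place of loess, both class medians were positive, 0.26 for class 3 and 1.11 for class 6. All genes above background then had a median of 0.52.

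Sema6c encodes a transmembrane semaphorin that can act on plexin-A receptors. Its brightest probe, on the plus strand at chr3:94977887-94977946 (mm9), had log2 ratios of 2.89 on array 1 and 1.83 on array 2. In brightness on the log2 scale, the control channel was 6.51 and 7.14 and the SOX11 channel 9.40 and 8.97. Both SOX11 values thus lay above both control values, and all channels were above background. The mean was 2.36 ± 0.75 (SD, n = 2), a 5.13-fold rise with an adjusted p of 0.000703 in limma.

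The other Sema6c probe lies 708 bases away at chr3:94977179-94977238 and moved less. Its log2 ratios were 0.80 and 0.72, with a mean of 0.76 ± 0.061 (SD, n = 2, adjusted p = 0.0243 in limma). It was not called at log2 1.5. Its control brightness was 6.82 and 6.96, near that of the brightest probe, and its SOX11 brightness 7.63 and 7.68. The choice of the brightest probe thus rested on the SOX11 channel, which also carries the rise. Both probes were higher on both arrays, but the rise at the brightest was larger by 1.60 on the log2 scale, the widest gap among members with several probes above background. The mean over both probes was 1.56. To show what each probe reads, 30 bases of each are given, with the letters AATAAA, the common signal for adding a poly(A) tail, in capitals.

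Sema6c brightest probe, bases 16 to 45: aacttttggagaAATAAAacgaagctgctg
Sema6c other probe, bases 1 to 30: ccgccccgcacggtggtcatttcaacttct

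The word AATAAA stands in 10.1% of all probes and in 12 of the 97 member probes, and it is absent from the other Sema6c probe by this search.

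The other class 6 semaphorins had smaller ratios. Sema6a had 0.66 and 0.42 (mean 0.54, adjusted p = 0.0853 in limma), with a second probe at 0.18 and 0.27. Sema6d had 0.57 and 0.60 (mean 0.58, adjusted p = 0.0626 in limma), read by a repeat-bearing probe that is described further on. Neither passed the test, although both were positive on both arrays.

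Sema3c, a secreted semaphorin that acts through neuropilins with plexin-A receptors or Plxnd1, fell. At chr5:17235981-17236040 (mm9) its log2 ratios were -1.42 and -0.94. The control channel had log2 brightness of 8.68 and 8.11 and the SOX11 channel 7.26 and 7.17, so the groups did not overlap. The mean was -1.18 ± 0.34 (SD, n = 2), 2.27-fold lower with an adjusted p of 0.00542 in limma. The other Sema3c probe, at chr5:17234078-17234137, had -0.86 and -0.59 (adjusted p = 0.0337 in limma). Its SOX11 channel was at background on both arrays, so Sema3c was at least 1.61-fold lower there. For this bound the SOX11 value on each array was the probe's signal or the lowest signal above background, whichever was higher, and with 1 dye orientation it is open to dye bias.

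Sema3d, another secreted class 3 semaphorin, fell as well but less evenly. At chr5:12586981-12587040 (mm9) its log2 ratios were -1.57 and -0.66, with control brightness of 7.87 and 7.32 and SOX11 brightness of 6.30 and 6.66. Array 1 gave the larger fall, and the channels did not overlap. The mean was -1.11 ± 0.64 (SD, n = 2), 2.16-fold lower with an adjusted p of 0.0209 in limma. Of the other class 3 genes, Sema3f had -0.43 and -0.45 (mean -0.44, adjusted p = 0.135 in limma). Sema3b had opposite signs, 0.60 and -0.23, and Sema3e, with its control channel below background, had 0.33 and 0.25.

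The class 4, 5 and 7 semaphorins had means from -0.41 for Sema5a to 0.51 for Sema4c, and none was called. Sema4a, Sema4b and Sema4d, transmembrane proteins also known from immune cells, were lower on both arrays, with means of -0.24, -0.18 and -0.32. The 6 immune markers above background had a median of -0.26, beside these 3 values, and their part was not tested. Sema5a had -0.26 and -0.56, and Sema7a, which is anchored in the membrane by a lipid, had 0.11 and -0.36.

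**Figure D2:**
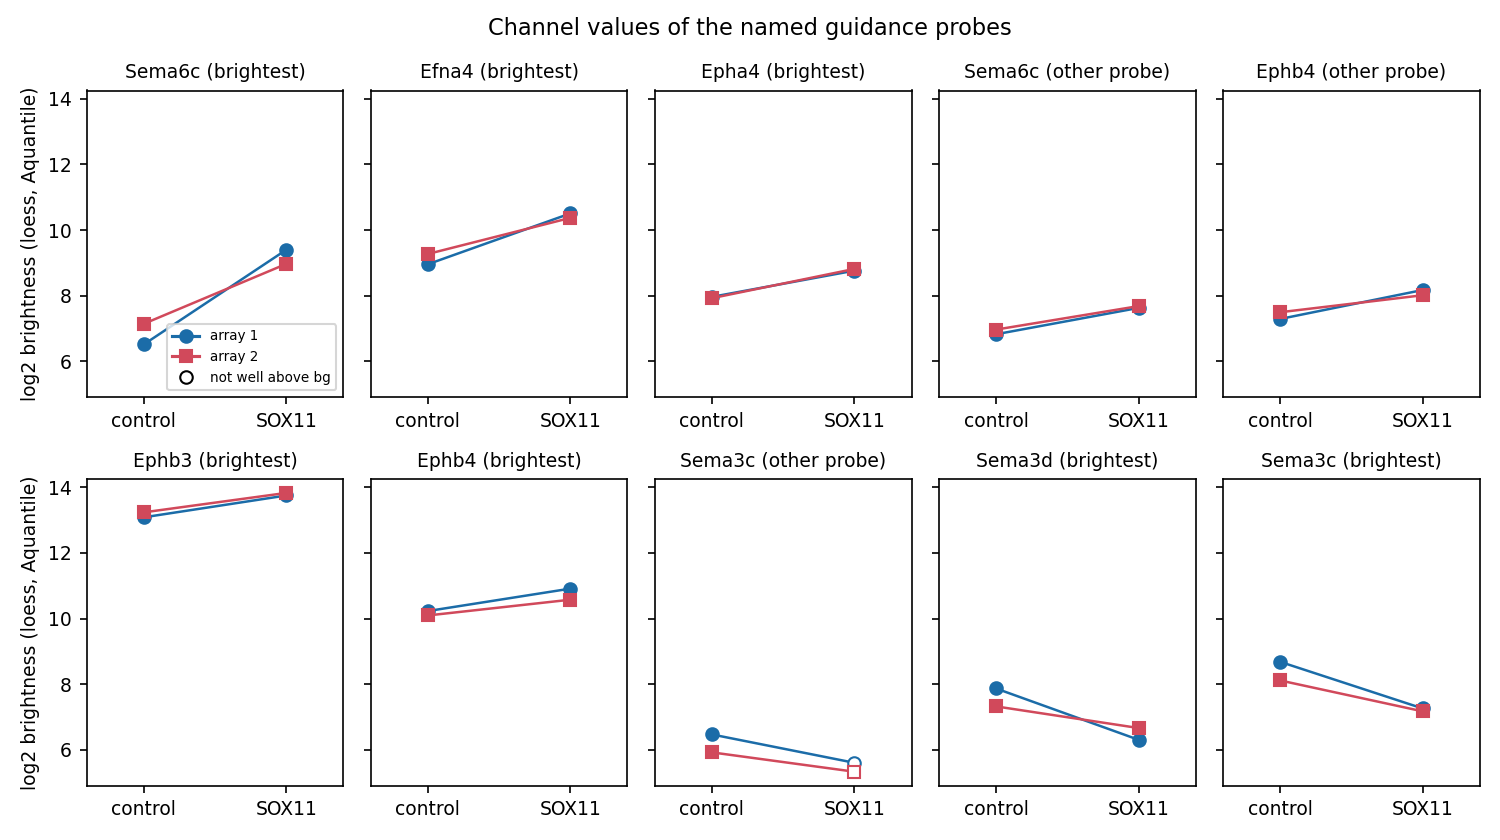
Log2 brightness in control and SOX11-induced epidermis for the probes of Sema6c, Efna4, Epha4, Ephb3, Ephb4, Sema3c and Sema3d. Values are after loess and after average brightness was made alike between arrays (Aquantile), with 1 line per array and open symbols where the channel was not well above background. Lines rise on both arrays for Sema6c, Efna4, Epha4, Ephb3 and Ephb4 and fall on both for Sema3c and Sema3d.

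Among ephrins, Efna4 rose and no other passed the test. Efna4 is a ligand held to the membrane by a lipid anchor. Its single probe, at chr3:89138180-89138239 (mm9, minus strand), had log2 ratios of 1.55 and 1.10. Control brightness was 8.96 and 9.27 and SOX11 brightness 10.51 and 10.37, so the channels were well apart on both arrays. The mean was 1.33 ± 0.32 (SD, n = 2), a 2.51-fold rise with an adjusted p of 0.00277 in limma.

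Efna4 lies in a cluster with Efna3 and Efna1, which encode ligands of the same A-type receptors, and neither neighbour was called. The Efna3 probe starts 19.2 kb from that of Efna4 and had 0.56 and -0.04, with its other probe at 0.47 and -0.01. The Efna1 probe starts a further 43.3 kb away and had -0.30 and -0.68 (mean -0.49, adjusted p = 0.127 in limma). Efna1 was thus lower on both arrays where Efna4 was higher on both. Differences between these genes were not tested.

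The other ephrins had means between -0.27 and 0.22. Efnb1 had -0.17 and -0.37, and Efnb2, the ligand of Ephb4, had 0.28 and 0.16 at its brightest probe and 0.17 and 0.14 at the other. Efna2 (0.15 and -0.02) and Efna5 (0.02 and -0.32) had opposite signs on the arrays.

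Of the other ligands, only Slit3 and Ntn4 were above background. Slit3, a secreted ligand of Robos, had 0.45 and -0.55, with its control channel above background on array 2 alone. Ntn4, a netrin of basement membranes, had 0.17 and -0.11 (mean 0.03), with the control channel below background on both arrays. Neither had the same sign on both arrays.

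Among receptors, the 21 genes above background had a median of 0.15, beside -0.09 for the 24 ligands. Of the 21, 2 were called higher and 0 lower, beside 6.81% and 3.47% of all genes above background. Both called receptors were Eph receptors. The 9 Eph receptors above background had a median of 0.34 and means from -0.32 to 0.85. Ephb3 and Epha5 among them, with means of 0.63 and 0.59, are read by probes with a GT run described further on.

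Epha4 binds A-type ephrins and also B-type ones. Its probe at chr1:77364339-77364398 (mm9, minus strand) had log2 ratios of 0.80 and 0.89. Control brightness was 7.96 and 7.92 and SOX11 brightness 8.76 and 8.81. The arrays were nearly alike, with a mean of 0.85 ± 0.066 (SD, n = 2), a 1.80-fold rise with an adjusted p of 0.0156 in limma. Epha1 and Epha2, receptors well known in epithelia, had -0.32 and -0.27 and -0.31 and -0.34 respectively. They were lower on both arrays, within 1.5-fold, with adjusted p-values of 0.291 and 0.253 in limma.

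Ephb4, the receptor of ephrin-B2, was close to the thresholds. Its brightest probe, at chr5:137815646-137815705 (mm9), had 0.68 and 0.48 (mean 0.58 ± 0.14, SD, n = 2, adjusted p = 0.0678 in limma). The other probe, at chr5:137813703-137813762, had 0.88 and 0.52 (mean 0.70 ± 0.26, SD, n = 2, adjusted p = 0.0438 in limma). All 4 values were positive, and only the other probe passed the test. Ephb2 had 0.17 and 0.25, Ephb6, a member without kinase activity, had -0.24 and -0.05, and Ephb1 had 0.70 and -0.03.

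Ephb3, a receptor of B-type ephrins, passed narrowly. Its only probe, at chr16:21223165-21223224 (mm9), had 0.67 and 0.59, with control brightness of 13.09 and 13.24 and SOX11 brightness of 13.75 and 13.83. The channels did not overlap, and the mean was 0.63 ± 0.052 (SD, n = 2), a 1.55-fold rise with an adjusted p of 0.0499 in limma. With median spot brightness, or with the authors' series table, the adjusted p was 0.0677 and 0.0674 and the call was lost.

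A feature that the choice of genes did not use was shared by 4 of the guidance probes, a run in which G and T alternate for 16 or more bases. They are the probes of Ephb3, Epha5, Sema6d and Sema4c, and 30 bases of each are shown with the alternating run in capitals where it falls in the stretch.

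Ephb3, bases 22 to 51: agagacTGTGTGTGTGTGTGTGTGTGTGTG
Epha5, bases 26 to 55: cgaaatTGTGTGTGTGTGTGTGTGTGcgtg
Sema4c, bases 1 to 30: aaTGTGTGTGTGTGTGTGTGTGTGttgtaa
Sema6d, bases 31 to 60: agaggggcgaGTGTGTGTGTGTGTGTGTGT

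The runs in the whole probes are 32 bases long in Ephb3, 20 in Epha5, 22 in Sema4c and 20 in Sema6d. Ephb3 had 0.67 and 0.59, Epha5 0.61 and 0.56, Sema6d 0.57 and 0.60 and Sema4c 0.52 and 0.50. All 8 values thus fell in a narrow range. The other probes of Epha5 and Sema6d were below background, and Ephb3 and Sema4c had no other probe.

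On the whole array 75 probes held such a run, and all 75 were above background and positive on both arrays, whereas 8922 of the 21782 probes above background were positive on both. Their median was 0.58, from 0.28 to 0.87, and 17 of them were called higher at 1.5-fold. That count was 0 with processed signals, 2 with median spot brightness, 3 with the series table, 35 with the filter on dim probes, 36 with an offset of 50 and 75 under median centring. Without the 4 guidance probes the median of the other 71 was also 0.58. All 75 were also positive on both arrays under each of the 6 other processing settings, with medians from 0.58 to 1.28, the last under median centring. Probes with shorter runs were less shifted, with a median of 0.51 for 12 to 15 bases, 0.21 for 10 to 11 and 0.14 for 8 to 9, and all probes above background had a median of 0.04. The length of 16 was chosen after the values were seen. The part of the run in the ratios of Ephb3, Epha5, Sema6d and Sema4c was not tested, and genotype and dye cannot be told apart in these probes. Leaving out every probe with such a run gave 3 higher and 2 lower calls among 66 guidance genes and a median of 0.03 over 41 above background.

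**Figure D3:**
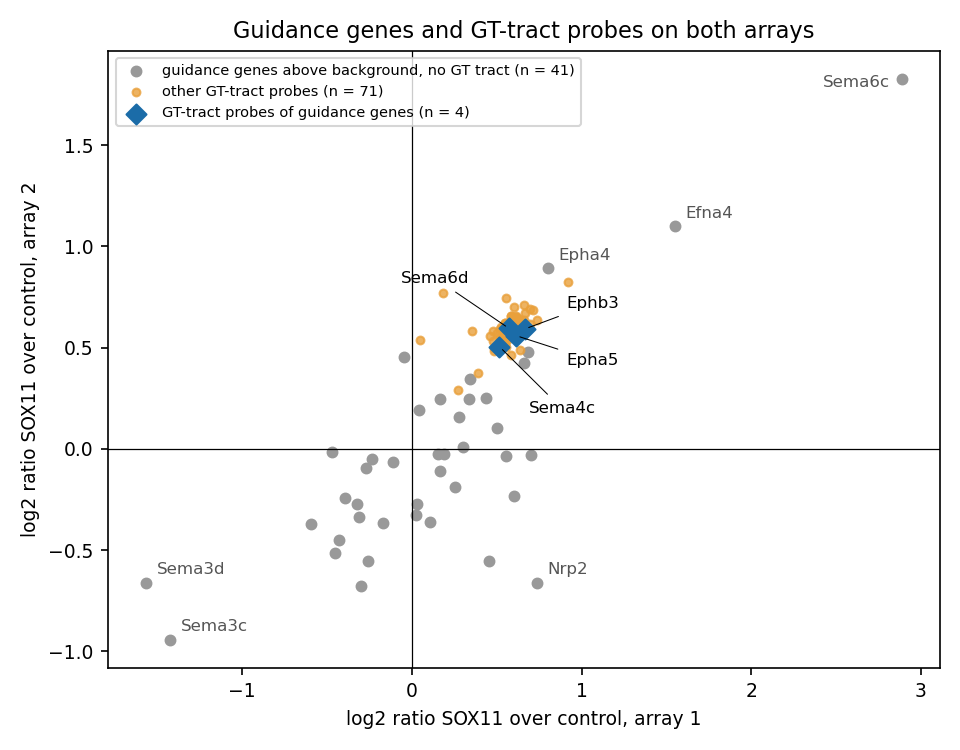
Log2 ratio of SOX11-induced over control epidermis on array 1 (horizontal) and array 2 (vertical), with grey points for the 41 guidance genes above background without a GT tract, orange points for the 71 other probes with such a tract and blue diamonds for Ephb3, Epha5, Sema6d and Sema4c. The diamonds lie inside the cluster of orange points, while Sema6c, Efna4, Sema3c and Sema3d lie outside it and Epha4 lies at its upper edge.

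The plexins, receptors of semaphorins, had no called member, and all 7 above background were within 1.5-fold. Plxna1, a plexin-A receptor, had 0.34 on both arrays (adjusted p = 0.228 in limma), while Plxna2 had -0.11 and -0.06 and Plxna3 -0.05 and 0.46. Plxnd1, a receptor for class 3 semaphorins, had -0.45 and -0.51 (mean -0.48, adjusted p = 0.108 in limma), lower on both arrays like Sema3c. Plxnb1, Plxnb2 and Plxnc1 had means of 0.30, 0.15 and 0.08. A second probe named Plxna2 is placed by the array file on another chromosome than the first, and its values are not given for this gene. It stays among the 97 member probes, in the gaps between probes and in the count over any probe, and was not called.

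Nrp2, the neuropilin above background, differed more between arrays than any other member. It had 0.74 on array 1 and -0.66 on array 2, and its other probe had 0.54 and -0.38. Control brightness was 8.71 on array 1 and 10.40 on array 2, whereas SOX11 brightness was 9.45 and 9.74, so the larger gap was between the control pups. Sema6c also had a higher ratio on array 1, by 1.06 on the log2 scale, as did Slit3, Sema3b and Ephb1, none of these 3 called, by 1.01, 0.83 and 0.73. Sema3d went the other way, with a ratio higher on array 2 by 0.91. The hair keratins, with medians of 2.17 and -0.42, and 6 melanocyte markers, with medians of 0.56 and -0.04, also had the higher ratios on array 1. The 4 dermal fibroblast markers above background, with medians of -0.17 and 0.84, had the higher ratios on array 2. The part of these marker genes' cell types in the values was not tested.

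Robo1 and Robo2, receptors of Slits, were positive on both arrays, with means of 0.12 and 0.34, and the other Robo2 probe above background had 0.37. Of the netrin receptors, Unc5a had -0.59 and -0.37 (mean -0.48, adjusted p = 0.115 in limma) and Unc5b 0.25 and -0.19. None of these passed the test.

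Set beside their partners, the called genes had few partners that passed. The plexin-A genes that can receive Sema6c had means of 0.34, -0.09 and 0.20. For Sema3c and Sema3d, Nrp1 was below background and Nrp2 had opposite signs on the arrays. For Efna4, the A-type receptor Epha4 was the one that also rose, while Epha5, with its GT tract, had a mean of 0.59 and was not called, and Epha1 and Epha2 had means of -0.30 and -0.32.

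Proteins that act with these ligands and receptors were described from lists chosen with earlier results of these data known. The list of co-receptors and other cues held 20 genes, of which 17 were above background, 0 were called higher and 3 lower. Of all named genes 1.75% were called lower, and of those above background 3.47%. Flrt1, an adhesion protein with a fibronectin leucine-rich repeat structure, had -1.45 and -0.97 (mean -1.21, adjusted p = 0.00481 in limma). Cntn1, a contactin, had -1.53 and -0.45 (mean -0.99, adjusted p = 0.0474 in limma), and Erbb2, a receptor tyrosine kinase that associates with plexin-B receptors, had -0.72 and -0.74 (mean -0.73, adjusted p = 0.0287 in limma). The list's median was -0.43, and 12 of the 17 were lower on both arrays. Under median centring the median turned to 0.22, with 3 higher and 2 lower calls.

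The probe named Dcc, for the netrin receptor on that list, had -0.65 and -0.33 (adjusted p = 0.119 in limma). It holds a GAA run of 51 bases among its 60 and is placed at chr7:68417162-68417221 (mm9). Whether this probe reads Dcc was not analysed here. It is counted among the 17 genes above background and the 12 lower on both arrays. All 45 probes with a GAA run of 16 or more bases were negative on both arrays, with a median of -0.45. The part of the repeat in the ratio of Dcc was not tested.

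The list of intracellular partners held 45 genes, with 42 above background, 10 called higher and 0 lower, beside 3.44% and 1.75% of all named genes. Of the 42 above background, 9 were called higher, beside 6.81% of all genes above background. This count was 31 under median centring, with a median of 0.77, and 0 with processed signals. The list was chosen with earlier results known, so these counts do not test it. Among the 10 called genes, Vav2 was below background in every channel and has no fold change. Evl, an Ena/VASP protein that promotes actin filament growth, had 2.03 and 1.76 (mean 1.89, adjusted p = 0.000301 in limma). Abl2 and Abl1, tyrosine kinases that act on actin, had means of 1.61 and 1.32, and Srgap1, which acts downstream of Robos, had 1.49. Pak1, a kinase downstream of Rac and Cdc42, had 1.43, and the exchange factors Vav3 and Trio had 1.23 and 0.83. Dpysl5 and Dpysl2, of the collapsin response mediator family, had 0.76 and 0.71, the first with an alternating GT run of 10 bases in its probe. The median of the 42 was 0.30, and 26 were positive on both arrays, as in the plot of genes and partners.

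**Figure D4:**
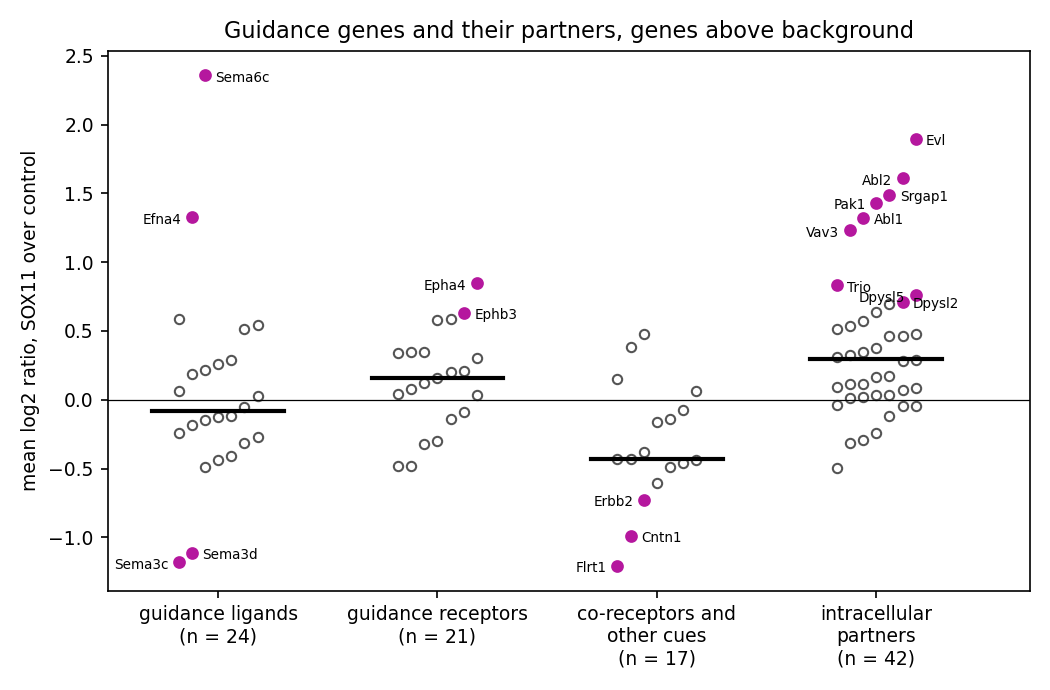
Mean log2 ratio of SOX11-induced over control epidermis for genes above background among guidance ligands (24), guidance receptors (21), co-receptors and other cues (17) and intracellular partners (42), with a bar at each median and filled points for genes called at 1.5-fold. Called genes lie on both sides of 0 among ligands, above it among receptors and intracellular partners and below it among co-receptors.

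The promoters of the called genes were read from a RefSeq table for GRCm38.p6, as 300 bases around each transcript start. SOX proteins bind short words such as ACAAAG and ACAATG, and these were searched on both strands, without overlap between the words. Efna4 and Sema3d held 2 matches each and Sema3c 1, while Sema6c (at either of its starts), Epha4, Ephb3 and Ephb4 held none. Both promoters with 2 matches are printed with the matches in capitals, because they belong to a gene that rose and a gene that fell.

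Efna4, chr3:89337979-89338278, minus strand: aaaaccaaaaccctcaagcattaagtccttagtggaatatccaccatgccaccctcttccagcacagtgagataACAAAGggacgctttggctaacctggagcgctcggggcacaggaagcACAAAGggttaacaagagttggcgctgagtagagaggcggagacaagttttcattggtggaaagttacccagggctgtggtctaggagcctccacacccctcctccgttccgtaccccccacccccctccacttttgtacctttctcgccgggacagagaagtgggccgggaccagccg
Sema3d, chr5:12382916-12383215, plus strand: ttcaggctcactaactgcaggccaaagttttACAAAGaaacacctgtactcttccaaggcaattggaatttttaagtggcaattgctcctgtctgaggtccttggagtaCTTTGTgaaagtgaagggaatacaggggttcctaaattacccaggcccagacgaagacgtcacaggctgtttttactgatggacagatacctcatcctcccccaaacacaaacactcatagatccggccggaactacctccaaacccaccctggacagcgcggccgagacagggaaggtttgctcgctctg

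At least 1 of these words stands in 28.6% of 32851 promoters in the table and in 16 of 75 promoters of guidance genes (21.3%), so that a match is common. A match here is a description of letters and not a site.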

How the data were processed

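RNA of 2 littermate pairs was measured on 2 two-colour Agilent arrays, 1 pair per array. Per the file headers, the deposited intensity values are the brightness of each spot and its local background, in scanner units without normalization, from Agilent Feature Extraction 10.7.3.1 on a G2505C scanner, with positions on mm9. The authors also deposited a table of log2 ratios, made with normexp (offset 16) and loess. Per the file headers, processed intensity signals were background-subtracted and dye-normalized by the software.

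Mean spot brightness was corrected by normexp (offset 16) and centred by loess in R 4.3.3 with limma 3.58.1. Control spots and outlier spots (194 and 186) had no weight. Each of 55676 probes was fitted with an intercept alone over both log2 ratios (eBayes, Benjamini-Hochberg over all probes), which keeps the littermate pairing. Scripts were tested on simulated data. A gene was called at an adjusted p under 0.05 and past 1.5-fold, or past log2 1.5. The prior had 8.24 degrees of freedom, and with 2 arrays the smallest p of an exact sign-flip test is 0.5. Arrays shared 1 slide, and their number limits precision.

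Above background means that the software marked at least 0.5 of a probe's spots in at least 1 channel on both arrays. Genes named are those with a probe past the adjusted p, their partners above background and, in other lists, the called genes. Other members were named after their values were seen. Members and lists were chosen with earlier results of these data known. All 68 members matched the RefSeq table. Exon or UTR positions of the probes on mm9, and protein sequences, were not analysed here. Some items of the lists are not reported here.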

Additional observations from a re-analysis of the deposited data

How the results depend on the processing

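Sema6c, Efna4, Epha4, Sema3c and Sema3d kept their direction and their call at 1.5-fold with a normexp offset of 50, median centring, median spot brightness, the series table and a filter on dim probes. With processed signals of the scanner software 0 members were called at either threshold, while 21 had an unadjusted p under 0.05 in limma, and none of Sema6c, Efna4, Epha4, Ephb3, Ephb4, Sema3c and Sema3d changed direction under any setting. Among all 45 members above background, 16 changed direction under median centring (all to positive), 2 with processed signals (Efna2 and Plxnc1) and 1 with median spot brightness or the series table (Slit3). Median centring moved the median of all genes above background to 0.52 and that of the members to 0.48. It called 23 members at 1.5-fold (19 higher and 4 lower) and 2 at log2 1.5, where loess called 6 (4 higher and 2 lower) and 1. An array alone has no test. Between 11 and 14 members were past 1.5-fold on a single array and between 1 and 3 past log2 1.5, and the median of the members was between -0.04 and 0.17. The offset of 50 called 8 members at 1.5-fold, adding Epha5 and Ephb4, the filter on dim probes called 7, adding Epha5, and counting any probe of a gene called 7, adding Ephb4. Leaving out probes with a GT tract was added after the data were seen and called 5. The share of all genes called was counted in the main setting alone. Counts of members and lists under the other settings, or on a single array, therefore have no general rate beside them. Brightness over background limits the 21 members that no channel measured. Each ratio is already a difference within a littermate pair, and a fit of the separate channels without this pairing was not run.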
